A study of Polypedilum vanderplanki with 33 samples.

Results

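The gene pairs described here lie on opposite strands of the genome of the midge Polypedilum vanderplanki, known as the sleeping chironomid for larvae that withstand near total loss of water, and their spans overlap by at least 1 base. They were chosen from the deposited gene models. Each gene had a strand and between 2 and 11 exons in its transcript with the most exons, and both genes of a pair lay on 1 scaffold. This gave 4406 pairs made of 6454 genes, which is 22.7% of the 28415 genes counted and 34.2% of the 18896 genes that met the exon rule. The choice used positions and no measured value.

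Genes on opposite strands can overlap in several ways. Convergent genes run towards each other and overlap at their 3′ ends, divergent genes run apart and overlap at their 5′ ends, and a contained gene sits wholly inside the span of its partner, often within an intron. In other organisms such overlaps are known for natural antisense transcripts, for transcription of 1 gene that hinders the other, and for shared promoter regions. The TruSeq RNA v.2 kit named in the labels does not mark which strand an RNA came from, so a read that falls on exons of both genes cannot be given to either from its strand, and the sources used here do not give the setting used to count such reads. The strand of a spliced gene model can be read from the letters at its splice sites.

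Polyadenylated RNA of whole larvae was sequenced while they dried and were then rewetted. The animals, by their labels, came from inbred lines kept on a milk and agar diet, and no genotype or agent other than drying and rewetting set the groups apart. Of the 33 libraries, 32 were used, leaving out replicate 2 at 1 h of rehydration as fixed in the choice of the pairs. They covered 10 times of dehydration and 7 times of rehydration, with 22 libraries in batch 1 and 10 in batch 2. The comparisons used 2 libraries each at 0 h and 48 h of dehydration, 3 each at 24 h and 40 h of dehydration, and 2 each at 0 h and 3 h of rehydration. Both 0 h dehydration libraries were of batch 1, and in the other groups replicate 2 was of batch 2. Replicate 2 at 40 h carried a duration of 48 h in the labels and was kept at 40 h by its title. The totals of the libraries ran from 15015674 to 34179203 counts. Whether replicates were separate animals or cultures is not stated, so p-values measure the spread between these libraries, which may be technical. The files do not pair gene IDs with names, so genes are given by scaffold and position in the deposited annotation, whose genome build is not given in the sources used here, and neither cell type markers nor gene functions could be looked up. In whole larvae, fewer cells of a type and less RNA per cell cannot be told apart.

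The pairs were spread over 728 scaffolds. One gene lay wholly inside the other in 2517 pairs (57.1%), 1227 pairs (27.8%) were convergent and 662 (15.0%) divergent. The spans overlapped by a median of 1085 bases, with quartiles of 468 and 2254.5 bases, and 268 pairs overlapped by fewer than 50 bases. Exons shared no base in 1816 pairs (41.2%), of which 1699 were contained genes. In 854 pairs (19.4%) the exons shared up to 25% of the exonic length of the gene with less of it, and in 1736 pairs (39.4%) more than 25%.

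Most genes, 5293, belonged to a single pair, but 49 genes belonged to more than 5 pairs and took part in 1027 pairs (23.3%). Of these 1027 pairs, 1005 shared no exonic base. The gene with the most partners had 103 of them, with 2 exons that summed to 316 bases in a span of 1186973 bases. Such gene models join short exons over very long introns, and pairs that share 1 gene are not separate observations. Counts are therefore given with and without these pairs.

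Of the 6454 genes, 5271 (81.7%) passed the filter on low counts, set at 1 CPM (the count scaled to library size) in 2 or more libraries, against 73.6% of the other 12442 genes that met the exon rule. Both genes passed in 2849 pairs. Per kb of exonic length, the tested genes of the pairs had a median level of 4.04 CPM per kb (quartiles 1.22 and 13.1), and the other tested genes under the exon rule 4.31 CPM per kb (quartiles 1.2 and 14.9). The median exonic length of the paired genes was 1441.5 bases, against 1184 bases for the others, and the median number of exons was 3 in both.

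The first question was whether the genes of a pair rose and fell together along the cycle. Over the 32 libraries the median Pearson correlation of log2 CPM within a pair was 0.52, with quartiles of 0.15 and 0.82. It was below 0 in 473 of the 2849 pairs and at least 0.8 in 754. The libraries of a time share their condition, so these correlations describe the pairs and carry no p-value.

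The correlation followed how much of the exons was shared. Pairs with no shared exonic base had a median of 0.10 (quartiles -0.16 and 0.36, 788 pairs), pairs sharing up to 25% had 0.38 (quartiles 0.12 and 0.64, 695 pairs), and pairs sharing more had 0.80 (quartiles 0.56 and 0.93, 1366 pairs). Within the last class the median was 0.58 for 25 to 50% shared, 0.78 for 50 to 75% and 0.88 for 75 to 100%. At least 0.8 was reached by 15 pairs with no shared exonic base and by 675 pairs that shared over 25%.

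**Figure D1:**
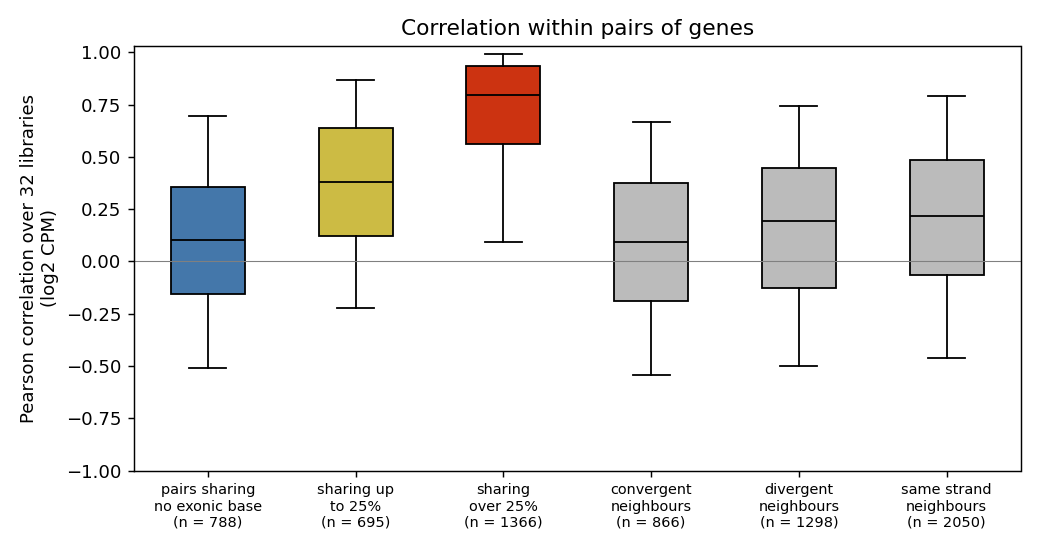
Pearson correlation over 32 libraries (y axis) for pairs on opposite strands by shared exonic length, and for neighbouring genes that lie 1 to 1000 bases apart (grey). Boxes span the quartiles with the median as a line, and whiskers run from the 5th to the 95th percentile. Medians climb from 0.10 without shared exonic bases to 0.80 with more than 25% shared.

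The same order was seen within each arrangement. Convergent pairs went from 0.46 with up to 25% shared to 0.82 with more, divergent pairs from 0.24 to 0.66, and contained genes from 0.10 with nothing shared through 0.35 to 0.80. After the mean of each time and the batch difference were removed, the median correlation of what was left was 0.07, 0.21 and 0.67 in the classes of rising shared length. In batch 1 alone the class medians were 0.09, 0.39 and 0.80, and in batch 2 alone 0.12, 0.41 and 0.83. Leaving out pairs with a gene in over 5 pairs gave 0.20, 0.38 and 0.80.

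Neighbouring genes that met the exon rule but lay 1 to 1000 bases apart had medians of 0.09 when convergent (866 pairs), 0.19 when divergent (1298 pairs) and 0.22 on the same strand (2050 pairs). These values stood close to the 0.10 of overlapping pairs that shared no exonic base. At the border of the rule, pairs overlapping by fewer than 50 bases had a median of 0.34 (quartiles 0.14 and 0.58, 221 pairs), and opposite-strand neighbours 1 to 50 bases apart had 0.17 (quartiles -0.12 and 0.47, 196 pairs).

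Where the exons coincided, the counts nearly did too. In 31 tested pairs each gene shared at least 95% of its exonic length with the other. Their total counts differed by a median of 1.05-fold, 23 of the 31 pairs were within 10% of each other, and the median correlation was 0.98. Pairs with no shared exonic base differed by a median of 11.6-fold. Of 375 genes with at least 95% of their exonic length under the partner's exons, 11 (2.93%) had no counts at all, and the median total was 1457 counts over all libraries.

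Among pairs with shared exons and both genes at a mean of 5 CPM or more, the highest correlation belonged to 2 gene models of 2 exons each on scaffold 130, on the plus strand at 369952 to 372346 and on the minus strand at 369953 to 372346. Of their exonic lengths of 2259 and 2263 bases, 2258 were shared, and their counts were equal in every one of the 32 libraries. Equal counts in all libraries were found in 2 of the 2849 pairs, both sharing over 25%. A read on shared exons was thus counted for both genes at least in these pairs, and a correlation or a joint change in a pair with shared exons cannot be told apart from reads counted for both.

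Pairs that shared no exonic base could also move together. Whether RNA from the introns of an outer gene was counted for the gene inside it was not tested. On scaffold 9230 a plus-strand gene (34443 to 39370, 3 exons) lay inside a minus-strand gene (34187 to 40410, 2 exons), with a correlation of 0.98. It was 0.95 after the mean of each time and the batch difference were removed. The plus-strand gene had 46.2 and 13.3 CPM at 0 h and 176 and 89.0 CPM at 48 h of dehydration, and its partner 103 and 37.8 CPM and 460 and 243 CPM. Both were higher in each 48 h library than in either at 0 h. On scaffold 1159 a plus-strand gene (41045 to 45745, 5 exons) inside a minus-strand gene (38597 to 59641, 11 exons) had a correlation of 0.96. With time means and the batch difference removed, that correlation was 0.29. The merged exons of the inner gene, 4701 bases, filled its whole span. The inner gene went from 1.1 and 3.49 CPM at 0 h to 24.2 and 17.8 CPM at 48 h, and the outer gene from 35.8 and 43.7 to 619 and 517 CPM. In both genes the 36 h library, at 22.0 and 415 CPM, was already near the 48 h level, while the 32 h library, at 3.41 and 67.2 CPM, was not.

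Drying was compared as 48 h against 0 h of dehydration. Among the 5271 tested genes of the pairs 866 rose and 964 fell, which is 34.7% called (edgeR's quasi-likelihood test, Benjamini-Hochberg adjustment over all tested genes, adjusted p under 0.05). Over all 17789 tested genes 33.3% were called, 15.1% up and 18.2% down, so the paired genes stood near the background. The other genes under the exon rule had 35.7% called. The median log2 fold change was -0.22 over the paired genes and -0.28 over all tested genes. That over all genes was -0.13 with upper quartile scaling, so changes are relative to this shift. Which direction held more of the calls depended on the setting. The counts over all tested genes under each alternative are not given here, so these turns are not shown to be particular to the paired genes. With upper quartile scaling 1005 of the paired genes rose and 852 fell, so that 54.1% of the called genes rose in place of 47.3%. More genes rose than fell also without 48 h replicate 2 (796 and 637), in batch 1 alone (678 and 547) and with 0 h replicate 2 left out (799 and 769). Without 48 h replicate 1, 646 rose and 1094 fell. Where a library was left out or batch 1 stood alone, a group could be down to 1 library, which was then assumed to vary like the libraries of the other times.

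In 569 pairs both genes were called. They moved in the same direction in 507 pairs, 286 both up and 221 both down, and in opposite directions in 62, here called opposed pairs. The share of opposed pairs fell as more exonic length was shared. Of pairs with both genes called, 46 of 115 (40.0%) were opposed without a shared exonic base, 9 of 118 (7.63%) with up to 25% shared, and 7 of 336 (2.08%) with more. Among neighbours 1 to 1000 bases apart the share was 49 of 131 (37.4%) when convergent, 54 of 206 (26.2%) when divergent and 96 of 362 (26.5%) on the same strand. The differences between these shares were not tested, since pairs share genes and reads.

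**Figure D2:**
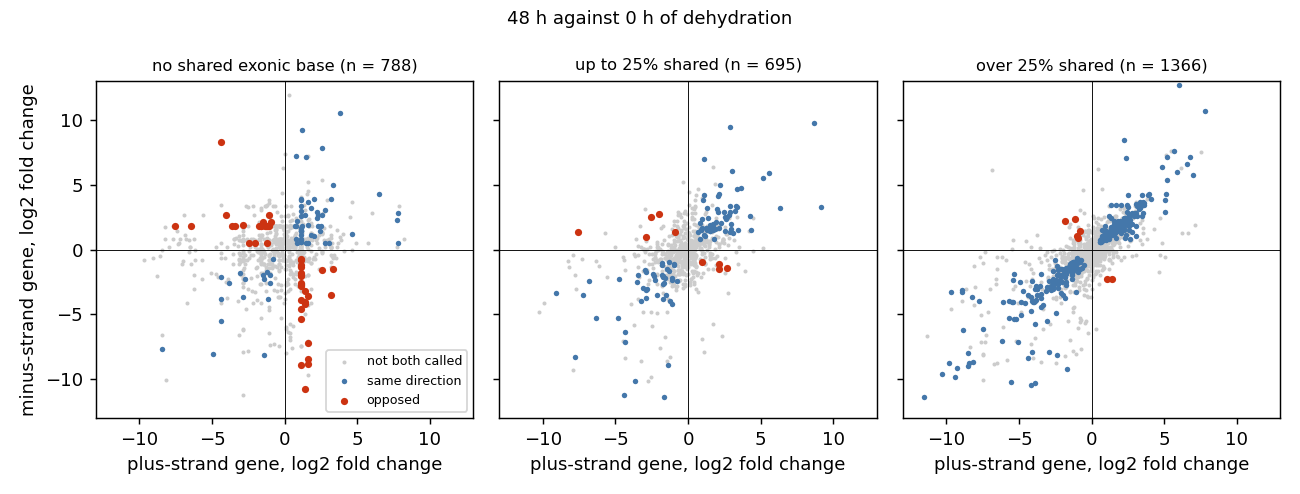
Log2 fold change at 48 h against 0 h of dehydration of the plus-strand gene (x axis) and the minus-strand gene (y axis) of each of 2849 pairs, in panels by shared exonic length. Red points are the 62 opposed pairs, blue points the 507 pairs called in the same direction, and grey points the other pairs. With more than 25% shared, the points lie along the diagonal.

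A few gene models made up most of the opposed pairs. In 40 of the 62 a gene belonged to more than 5 pairs, and 22 opposed pairs remained without them. Without such genes, 6 of 41 pairs (14.6%) with no shared exonic base and both genes called were opposed, in place of 40.0%. Models with very long spans recurred: of 65 tested pairs with the model on scaffold 261 (248354 to 1252938, 4 exons) 14 were opposed and 15 called in the same direction, and of 61 with that on scaffold 528 (196396 to 919118, 4 exons) 12 were opposed and 5 called in the same direction. These models were singled out after their values were seen. In 48 of the 62 pairs the genes were contained, against 1336 of all 2849 tested pairs. The containing gene rose in 45 of the 48, a count in which the same genes recur. Without genes in over 5 pairs there were 8 contained pairs, and the containing gene rose in 6, of which 2 held the same model on scaffold 1210 (242438 to 262954). Not all these rises were large. The containing model on scaffold 420 (68639 to 542074), in 3 opposed pairs, rose by 0.49 on the log2 scale, less than the shift between the TMM factors. The opposed pairs numbered 28 in batch 1 alone, 37 without 48 h replicate 2, and 8 with replicate 2 at 1 h of rehydration kept in the fit.

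The clearest opposed pair with no shared exonic base, by the rule used for naming, lay on scaffold 9508. A plus-strand gene of 7 exons (PvG034926, 489163 to 543217) contained a minus-strand gene of 8 exons (PvG034975, 529477 to 531822). PvG034926 had 12.2 and 10.3 CPM in the 0 h libraries and 112 and 63.0 CPM in the 48 h libraries. It rose by 3.16 ± 0.30 on the log2 scale (estimate ± SE, edgeR's quasi-likelihood test, Benjamini-Hochberg adjustment, adjusted p = 3.35e-08). PvG034975 had 133 and 52.0 CPM at 0 h and 9.44 and 6.64 CPM at 48 h. It fell by 3.49 on the log2 scale, with an SE of 1.0 (edgeR's quasi-likelihood test, Benjamini-Hochberg adjustment, adjusted p = 0.0168). Neither gene's groups overlapped, but the fall came early, with 8.01, 3.68 and 5.49 CPM at 24 h though 23.8 CPM in the 32 h library, and the rise late, with 18.6, 13.7 and 12.7 CPM at 24 h. At 48 h of rehydration PvG034926 was back at 12.4 CPM and PvG034975 at 89.8 CPM. The opposed call was lost without either 48 h library, without 0 h replicate 1 and in batch 1 alone.

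On scaffold 517 a minus-strand gene of 7 exons (PvG024988, 385310 to 402788) contained a plus-strand gene of 7 exons (PvG024898, 396699 to 399704), again with no shared exonic base and with a correlation of -0.73. After the mean of each time and the batch difference were removed, this correlation was 0.34. PvG024988 had 18.0 and 17.6 CPM at 0 h and 69.3 and 61.6 CPM at 48 h, a rise of 1.87 ± 0.26 on the log2 scale (estimate ± SE, edgeR's quasi-likelihood test, Benjamini-Hochberg adjustment, adjusted p = 7.62e-06). PvG024898 had 4.73 and 7.28 CPM at 0 h and 0.755 and 1.29 CPM at 48 h, and fell by 2.84 on the log2 scale with an SE of 0.57 (edgeR's quasi-likelihood test, Benjamini-Hochberg adjustment, adjusted p = 0.00047). Both genes changed late: at 32 h they stood at 26.7 and 5.17 CPM, and at 36 h at 88.9 and 2.71 CPM, each from 1 library. At 40 h replicate 1 the rise of PvG024988 was smallest, with 28.6 CPM.

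The third such pair held the model of long span on scaffold 528, whose plus-strand partner (264899 to 266521, 2 exons) went from 183 and 293 CPM at 0 h to 2.59 and 4.64 CPM at 48 h. The partner fell by 6.45 on the log2 scale with an SE of 1.15 (edgeR's quasi-likelihood test, Benjamini-Hochberg adjustment, adjusted p = 0.000514). The long model had 487 and 835 CPM at 0 h and 2622 and 2025 CPM at 48 h, a rise of 1.81 ± 0.26 on the log2 scale (estimate ± SE, edgeR's quasi-likelihood test, Benjamini-Hochberg adjustment, adjusted p = 9.5e-06). Among pairs with both genes at a mean of 5 CPM or more, the 2 lowest correlations without shared exonic bases, -0.77 and -0.77, were both with this model, for plus-strand genes at 424813 to 431183 and at 730939 to 733962. With the mean of each time and the batch difference removed, these were 0.15 and 0.32.

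Opposed changes also occurred where exons overlapped. On scaffold 79 the pair was divergent and shared 11 exonic bases. The minus-strand gene (111509 to 113069, 2 exons) had 20.6 and 11.6 CPM at 0 h and 102 and 74.5 CPM at 48 h, up by 2.53 ± 0.27 on the log2 scale (estimate ± SE, edgeR's quasi-likelihood test, Benjamini-Hochberg adjustment, adjusted p = 1.38e-07). The plus-strand gene (113059 to 113973, 4 exons) had 8.84 and 5.32 CPM at 0 h and 1.56 and 0.763 CPM at 48 h, and fell by 2.55 on the log2 scale with an SE of 0.45 (edgeR's quasi-likelihood test, Benjamini-Hochberg adjustment, adjusted p = 0.000117). The groups of neither gene overlapped.

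On scaffold 717 the plus-strand gene (3114 to 15654, 7 exons) contained the minus-strand gene (3131 to 5064, 7 exons), and they shared 366 exonic bases, 22.9% of the smaller exonic length. The plus-strand gene went from 30.4 and 28.8 CPM at 0 h to 9.98 and 5.52 CPM at 48 h, and the minus-strand gene from 3.59 and 2.62 to 16.8 and 25.4 CPM. The fall was 1.98 on the log2 scale with an SE of 0.45 and the rise 2.77 ± 0.40 (edgeR's quasi-likelihood test, Benjamini-Hochberg adjustment, adjusted p = 0.00158 and 9.03e-06). Their exonic lengths, 1601 and 1685 bases, were alike, and the plus-strand gene was the higher in both 0 h libraries and the minus-strand gene in both 48 h libraries.

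The third pair with shared exons was convergent, on scaffold 18125, with 354 shared exonic bases or 32.2%. Its minus-strand gene (1353 to 6458, 4 exons) had 8.81 and 6.73 CPM at 0 h and 37.9 and 29.2 CPM at 48 h. Its plus-strand gene (550 to 1706, 2 exons) had 4.21 and 6.13 CPM at 0 h and 2.70 and 0.117 CPM at 48 h, and fell by 1.87 on the log2 scale with an SE of 0.69 (edgeR's quasi-likelihood test, Benjamini-Hochberg adjustment, adjusted p = 0.0416). The opposed call was lost in 7 of 14 alternatives, among them leaving out either 0 h library or 48 h replicate 2. It was also lost with the number in the library titles as a block.

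**Figure D3:**
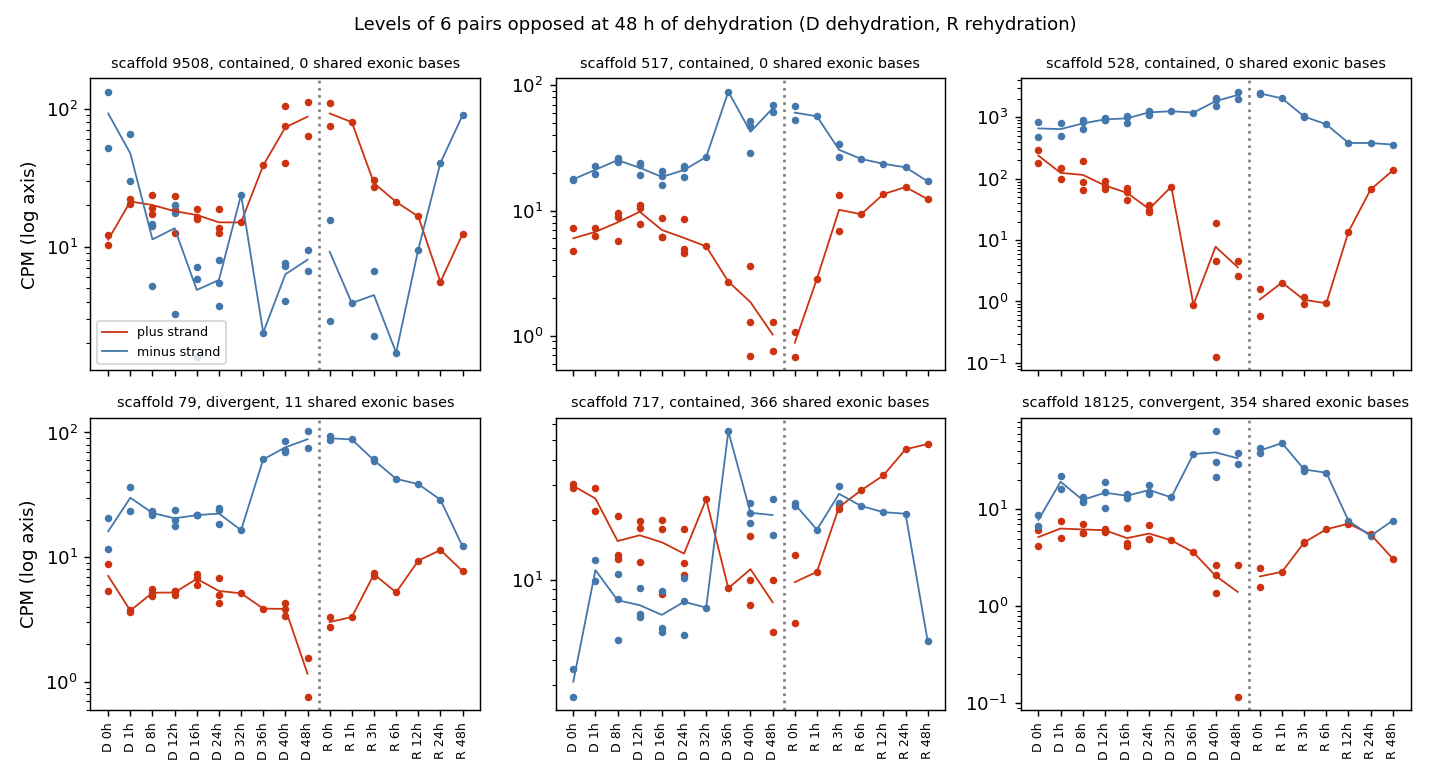
Levels in CPM (log axis) over the 17 times, with a point for each library and lines through the mean of each time, for the 3 named opposed pairs without shared exonic bases (top) and the 3 with shared exonic bases (bottom). Dotted lines mark the change from dehydration to rehydration. On scaffold 717 the genes exchanged their order between 0 h and 48 h of dehydration.

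The 22 opposed pairs with no gene in over 5 pairs held 43 genes. They comprised 8 contained, 6 convergent and 8 divergent pairs, of which 6 shared no exonic base, 9 up to 25% and 7 more. Their correlations ran from -0.79 to 0.40, with a median of -0.37, and 16 were below 0. The ratio of the gene that rose to the gene that fell, on a log2 scale and relative to 0 h, had a median between 0.91 and 1.00 in the 24 h libraries and of 0.91 at 32 h. It was 2.51 at 36 h, between 2.20 and 2.99 at 40 h, and in the 48 h libraries it was 3.46 and 3.73. The 48 h and 0 h values chose these pairs, and the other times share the 0 h libraries, so the values are a description. The 32 h and 36 h libraries were both of batch 2 and without a replicate. During rehydration the median ratio was 3.69 and 3.17 at 0 h, 3.01 at 1 h, and 2.19 and 1.83 at 3 h. It was 1.64 at 6 h, 1.04 at 12 h, 0.16 at 24 h and 0.79 at 48 h.

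**Figure D4:**
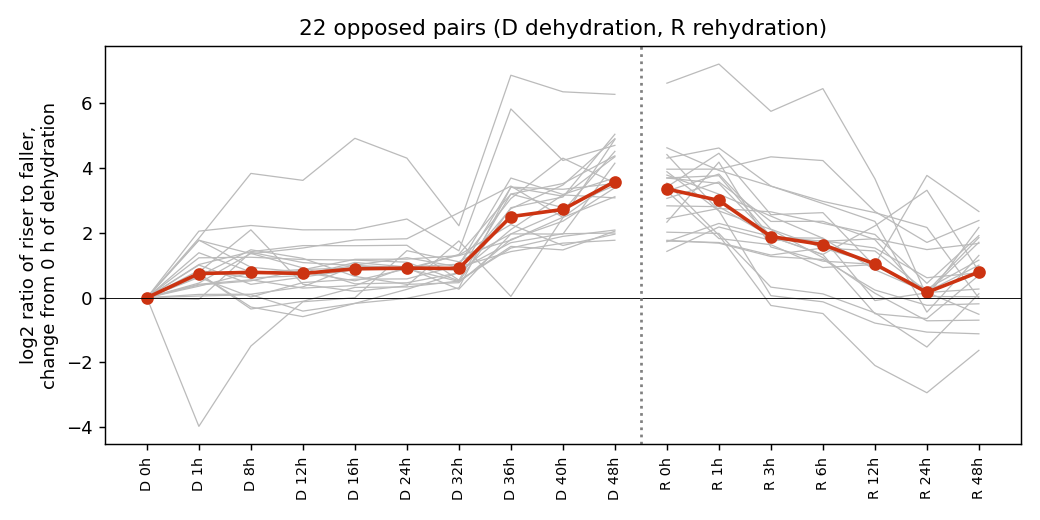
Change from 0 h of dehydration in the log2 ratio of the riser to the faller (y axis) over the 17 times (x axis), in 22 opposed pairs with no gene in over 5 pairs. Grey lines are pairs, as means over the libraries of a time, and the red line is their median, which steps up between 32 h and 36 h of dehydration and comes down through rehydration.

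The pairs named here for moving together at 48 h all shared exonic bases. Most pairs that moved together did so too, since 69 of the 507 shared none. The size of change was not compared between the classes. On scaffold 41978 a minus-strand gene (2455 to 3538) lay inside a plus-strand gene (2309 to 3646), and they shared 232 exonic bases, 64.1%. The minus-strand gene had 0 and 0.0601 CPM at 0 h and 55.8 and 60.7 CPM at 48 h, and the plus-strand gene 0.0691 and 1.41 and then 212 and 121 CPM. The minus-strand gene rested on 2 counts at 0 h against 2068 at 48 h. By library totals without TMM scaling this was a ratio of 954-fold with a 95% exact interval of 264 to 7887. On scaffold 14654 a plus-strand gene (1391 to 2638) lay inside a minus-strand gene (810 to 3334) with all of its 1248 exonic bases shared. The inner gene went from 0.587 and 0.210 CPM to 48 and 32.1 CPM and the outer gene from 0.587 and 0.271 to 67.2 and 48.0 CPM. All 4 genes of these pairs rose (edgeR's quasi-likelihood test, Benjamini-Hochberg adjustment, adjusted p between 3.54e-07 and 0.000259).

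Of the pairs that fell together, 1 lay on scaffold 120, where a plus-strand gene (124824 to 125698) and a minus-strand gene (124052 to 125465) were divergent and shared 618 exonic bases, 75.4%. They had 721 and 632 counts over the 0 h libraries and none in either 48 h library. Against a floor of 3 counts over the 48 h group they were 260-fold and 228-fold lower by library totals. These ratios leave out the TMM factors, 1.22 and 1.17 at 0 h and 0.54 and 0.76 at 48 h, with which they would be smaller. In the other, on scaffold 1230, a minus-strand gene (204520 to 207036) lay inside a plus-strand gene (204402 to 207751) with 377 shared exonic bases, 95.4%. The plus-strand gene had 95.1 and 20.4 CPM at 0 h and 0.431 and 0 CPM at 48 h, and the minus-strand gene 32.2 and 5.41 CPM and then 0.431 and 0 CPM. All 4 genes fell (edgeR's quasi-likelihood test, Benjamini-Hochberg adjustment, adjusted p between 1.09e-05 and 0.0324). The joint call on scaffold 1230 was lost in 7 of 14 alternatives, among them DESeq2, leaving out either 48 h library or 0 h replicate 1, and batch 1 alone, and that on scaffold 120 was lost with replicate 2 at 40 h moved to 48 h.

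The late phase was compared as 40 h against 24 h of dehydration, which shares no library with the first comparison. Of the paired genes 595 rose and 466 fell, 20.1% called against 19.0% of all tested genes, with 10.2% up and 8.76% down. The direction with more calls turned without 40 h replicate 2 (549 up and 692 down), in batch 1 alone (436 and 594), with that library moved to 48 h (538 and 586) and with DESeq2 (689 and 694). Here too the counts over all tested genes in these settings are not given. Both genes were called in 256 pairs, in the same direction in 237 and opposed in 19. Without a shared exonic base 13 of 38 (34.2%) were opposed, with up to 25% shared 4 of 45 (8.89%), and with more 2 of 173 (1.16%). Of the 19, 12 were also opposed at 48 h against 0 h, each in the same way, which is 63.2% of the 19 and 19.4% of the 62. A gene in over 5 pairs was part of 9 of the 19. Of the 22 pairs opposed at 48 h with no such gene, 5 were opposed here. The share of all genes called at 40 h that were also called the same way at 48 h is not given here. The overlap is therefore not shown to be particular to opposed pairs. Opposed pairs numbered 10 without genes in over 5 pairs, with 4 of 20 (20%) among those without a shared exonic base, and 11 in batch 1 alone. They numbered 8 without 40 h replicate 1, 11 without 40 h replicate 3, 29 without 40 h replicate 2, and 8, 9 and 8 without 24 h replicates 1, 2 and 3. Without 40 h replicate 1, 157 pairs moved in the same direction.

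A contained pair without shared exonic bases on scaffold 1210 ranked first of its kind by the smaller change. The plus-strand gene (253197 to 257708, 5 exons) had 59.6, 54.7 and 40.7 CPM at 24 h and 15.0, 37.0 and 15.4 CPM at 40 h. It fell by 1.26 on the log2 scale with an SE of 0.26 (edgeR's quasi-likelihood test, Benjamini-Hochberg adjustment, adjusted p = 0.00136). The minus-strand gene around it (242438 to 262954, 7 exons) had 4.13, 2.92 and 3.93 CPM at 24 h and 19.5, 9.82 and 18.3 CPM at 40 h. It rose by 2.11 ± 0.40 on the log2 scale (estimate ± SE, edgeR's quasi-likelihood test, Benjamini-Hochberg adjustment, adjusted p = 0.000528). In both genes replicate 2 at 40 h, the library with conflicting durations, lay nearest to the 24 h values.

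The divergent pair on scaffold 629, with 48 shared exonic bases, had the lowest correlation of the 2849 tested pairs, -0.79. With the mean of each time and the batch difference removed, its correlation was 0.36. The plus-strand gene (479479 to 482629, 5 exons) had 26.6, 26.0 and 21.8 CPM at 24 h and 63.5, 73.6 and 54.0 CPM at 40 h, a rise of 1.36 ± 0.21 on the log2 scale (estimate ± SE, edgeR's quasi-likelihood test, Benjamini-Hochberg adjustment, adjusted p = 6.46e-05). The minus-strand gene (476878 to 479526, 3 exons) had 73.5, 75.4 and 73.6 CPM at 24 h and 14.9, 26.7 and 15.3 CPM at 40 h, and fell by 2.00 on the log2 scale with an SE of 0.22 (edgeR's quasi-likelihood test, Benjamini-Hochberg adjustment, adjusted p = 6.14e-07). The pair was opposed at 48 h too, and the 32 h library, at 24.98 and 59.97 CPM, still resembled 24 h, while the 36 h library had 61.2 and 16.9 CPM. At 24 h of rehydration the genes stood at 17.2 and 83.6 CPM.

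Rewetting was compared as 3 h against 0 h of rehydration. Of the paired genes 575 rose and 499 fell, 20.4% called against 18.9% of all tested genes, with 9.84% up and 9.04% down. The share of the called genes that rose was 53.5%, and 41.0% with upper quartile scaling, which called 483 up and 696 down. Both genes were called in 240 pairs, in the same direction in 223 and opposed in 17. Without a shared exonic base 15 of 38 (39.5%) were opposed and with up to 25% shared 2 of 36 (5.56%). With more than 25% shared edgeR called 0 of 166 opposed, with 5 at an unadjusted p under 0.05, and DESeq2 called 1.

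Without genes in over 5 pairs 7 pairs were opposed at 3 h of rehydration, among them 5 of 14 (35.7%) of those without a shared exonic base and with both genes called. Dropping 3 h replicate 1 left 7 opposed pairs, dropping 3 h replicate 2 left 8 and dropping 0 h replicate 1 left 6, and pairs called in the same direction numbered between 96 and 128 without 1 of the 4 libraries. Among the paired genes, 340 rose and 228 fell when 3 h replicate 1 was dropped, and 347 rose and 246 fell when 3 h replicate 2 was. Dropping 0 h replicate 1 left 268 rises and 277 falls, and dropping 0 h replicate 2 left 395 and 301. In batch 1 alone each time had 1 library, and 3 pairs were called opposed, with 269 rises and 98 falls. These calls, and those with a library left out, rest on a spread estimated at other times and have no replicate check of their own in a group of 1 library. The counts over all tested genes in these settings are not given here.

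**Figure D5:**
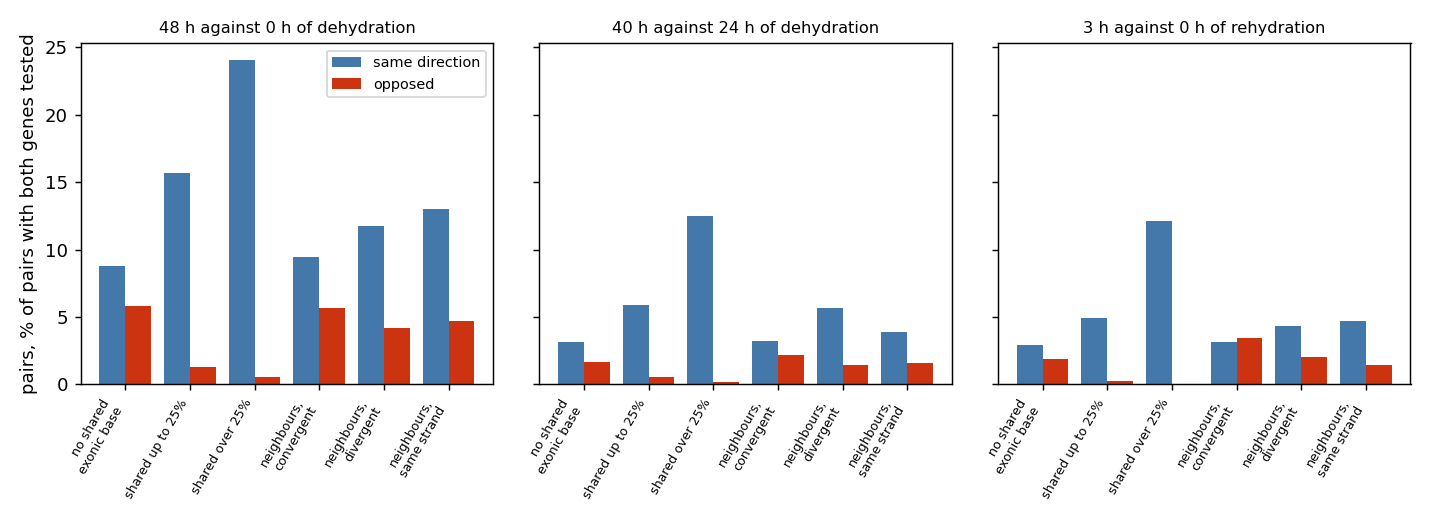
Percent of tested pairs (y axis) with both genes called in the same direction (blue) or in opposite directions (red), for pairs on opposite strands by shared exonic length and for neighbours 1 to 1000 bases apart, in the 3 comparisons. With more than 25% shared, same-direction calls reach 24.08% at 48 h and opposed calls 0.512%.

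The pairs opposed in drying were then followed on rewetting. Of the 62 pairs opposed at 48 h, 8 were opposed the other way round at 3 h of rehydration and 0 in the same way (edgeR, at the adjusted threshold), and in 28 a single gene was called, in 27 of these against its change in drying. In 25 pairs neither gene was called, and in 1 both were called in the same direction. The 8 pairs are 12.9% of the 62 and 47.1% of the 17 opposed on rewetting. The log2 ratio of the genes moved against its change in drying in 51 of the 62 pairs, with a median of -1.32, a count that includes changes not called. The share of all genes called at 48 h that turned back at 3 h of rehydration is not given here. The turn is therefore not shown to be particular to opposed pairs. The comparisons share no library, but many of these pairs share a gene, and of the 22 pairs with no gene in over 5 pairs 1 was opposed at 3 h, 10 had a single gene called, 10 had neither and 1 had both called in the same direction.

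That 1 pair was PvG024898 and PvG024988 on scaffold 517. PvG024988 had 67.9 and 53.1 CPM at 0 h and 27.0 and 34.0 CPM at 3 h of rehydration, and PvG024898 1.08 and 0.678 CPM and then 6.92 and 13.4 CPM. The first fell by 0.99 on the log2 scale with an SE of 0.25 and the second rose by 3.41 ± 0.58 (edgeR's quasi-likelihood test, Benjamini-Hochberg adjustment, adjusted p = 0.00775 and 0.000345). In TMM-scaled CPM the groups of neither gene overlapped, and the opposed call was lost without 3 h replicate 1 and without 0 h replicate 1.

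The pairs with the largest changes in both comparisons held the long models of scaffolds 528 and 648. The model on scaffold 528 fell from 2472 and 2439 CPM at 0 h to 1022 and 1042 CPM at 3 h of rehydration, by 1.25 on the log2 scale with an SE of 0.25 (edgeR's quasi-likelihood test, Benjamini-Hochberg adjustment, adjusted p = 0.0013). Its contained partners on the plus strand rose: the gene at 292133 to 299138 from 1.87 and 0.602 to 11.1 and 11.1 CPM, that at 702186 to 705015 from 1.58 and 0.527 to 3.68 and 9.01 CPM, and that at 730939 to 733962 from 20.01 and 15.1 to 39.6 and 37.6 CPM. These partners had fallen at 48 h of drying (edgeR's quasi-likelihood test, Benjamini-Hochberg adjustment, adjusted p between 0.000149 and 0.00686), and on rewetting their adjusted p lay between 0.0021 and 0.0461 by the same test. The opposed call on rewetting of the first of them was lost without 0 h replicate 2. That of the second was lost without 3 h replicate 2, without either 0 h library, with the title number as a block and with upper quartile scaling. In drying both were lost without 48 h replicate 2, and the first also without 0 h replicate 2.

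On scaffold 648 the minus-strand model of 2 exons (14583 to 158416) fell from 63.0 and 48.7 CPM at 0 h to 15.4 and 13.8 CPM at 3 h of rehydration, by 1.94 on the log2 scale with an SE of 0.43 (edgeR's quasi-likelihood test, Benjamini-Hochberg adjustment, adjusted p = 0.00298). Of the genes inside it, the one at 149083 to 151150 rose from 3.45 and 7.91 to 12.2 and 16.4 CPM, by 1.36 ± 0.38 on the log2 scale (estimate ± SE, edgeR's quasi-likelihood test, Benjamini-Hochberg adjustment, adjusted p = 0.0144). The one at 67038 to 67821 had 0 counts in both 0 h libraries. With 264 counts at 3 h it was 72.3-fold higher, by library totals, than a floor set at 3 counts over the 0 h group. This ratio leaves out the TMM factors, 0.62 and 0.64 at 0 h and 1.11 and 1.27 at 3 h, with which it would be smaller. The first of these opposed calls was lost without 3 h replicate 2 and without 0 h replicate 1 on rewetting, and in drying without 48 h replicate 1, without either 0 h library and with upper quartile scaling. The second was lost in drying without 48 h replicate 2, in batch 1 alone and with replicate 2 at 40 h moved to 48 h, and its plus-strand gene averaged less than 5 CPM in every group compared.

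A convergent pair on scaffold 4342 was opposed on rewetting alone among the comparisons, after both genes had risen in drying. The genes (plus strand, 1 to 3424, and minus strand, 1883 to 6706) shared 357 exonic bases, 22.7%. At 48 h of drying they had risen by 3.43 and 1.49 on the log2 scale. At 3 h of rehydration the plus-strand gene had fallen from 46.9 and 30.6 to 15.4 and 11.7 CPM, while the minus-strand gene had risen from 149 and 154 to 454 and 503 CPM (edgeR's quasi-likelihood test, Benjamini-Hochberg adjustment, adjusted p = 0.0163 and 0.000955). The groups of neither gene overlapped, and the opposed call was lost without either 3 h library and without 0 h replicate 1.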

How the data were processed

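What the authors deposited are counts per gene, whole numbers without normalization, for 28415 genes, and the positions of their gene models. TopHat2 is the aligner that the submitters' processing notes name. The source column of the annotation names SAJR. The counting and strand settings and the genome build are not given in the sources used here. One gene line without exons could not meet the exon rule.

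The pairs and lists were chosen with earlier results of these data known. Exons of all transcripts of a gene were merged to find shared exonic bases. The 17789 genes that reached 1 CPM in 2 or more libraries were tested with edgeR 4.0.16 (R 4.3.3) by its quasi-likelihood F-test, robust, with TMM scaling, a coefficient per time, a batch term and Benjamini-Hochberg adjustment over all tested genes at 0.05. SEs were derived from the F statistic. CPM values are TMM-scaled, except floors and ratios from counts, and log2 CPM used a prior count of 2. The fit was tested on simulated counts. Intervals and floors cover counting error only. Replicate libraries differed by more than sampling noise. Pairs were named when both genes were called, changed at least 2-fold, had reached a mean of 5 CPM in their higher group and had groups without overlap, ranked by the smaller change. The highest and lowest correlations were named among pairs with both genes at a mean of 5 CPM. Pairs opposed one way in drying and the other way on rewetting were named by their smallest change with no minimum level, so some of their genes lay under 5 CPM. Alternatives were DESeq2 1.42.0, other scalings, filters, thresholds and covariates, batch 1 alone, and each library left out.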

Additional observations from a re-analysis of the deposited data

How the results depend on the processing

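In the comparisons of 48 h with 0 h, of 40 h with 24 h and of 3 h with 0 h of rehydration, in that order, opposed pairs numbered 28, 11 and 3 in batch 1 alone, 33, 6 and 7 at an adjusted p under 0.01, and 22, 10 and 7 without genes in over 5 pairs, a choice made after seeing the data. With replicate 2 at 1 h of rehydration kept they numbered 8, 0 and 0 by edgeR (37, 9 and 4 at an unadjusted p under 0.05). Leaving out a library gave between 37 and 64, between 8 and 29, and between 6 and 13. On rewetting a CPM minimum of 5 gave 28 and DESeq2 27. Pairs moving in the same direction numbered 295, 129 and 108 at 0.01, 145, 21 and 11 with that library kept, 69, 25 and 23 without shared exonic bases, 290 at 48 h and 58 on rewetting in batch 1 alone, and between 157 and 277 at 40 h and between 96 and 128 on rewetting with a library left out. The median correlation was 0.60 over time means, 0.73 with both genes at 5 CPM or more and 0.60 without genes in over 5 pairs. The cause of these shifts was not tested, except that fewer libraries or pairs entered some of them.

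With the replicate number as a block in place of batch, 61, 21 and 22 pairs were opposed. The numbers are not known to pair the libraries: deviations of equally numbered libraries at 40 h and 24 h correlated at 0.08 and 0.10, and those without a number at -0.05. No named gene called in the comparisons changed direction under any alternative. Over the named genes, comparisons and alternatives, 1438 outcomes were as before, 207 calls were lost and 32 were gained. The 1438 include genes that were not called in either setting, so they are not a count of calls kept. Depth limits the weaker genes, which fall near or below 1 CPM in the dry state.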
